A study of Bos taurus with 9 samples.

Results

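The genes described here are 7 chemokine ligands, *CCL22*, *CCL26*, *CCL2*, *CCL20*, *CXCL8*, *CXCL12* and *CXCL16*, out of 21512 genes in the deposited table of transcript abundance. *CCL22* and *CCL26* were chosen by their measured change between genotypes, which goes in opposite directions, and the other 5 were added by name as relatives of the same family. All 7 have a row in the table. The difference between genotypes in *CCL22* and *CCL26* is therefore given as a description, with no test.

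Single bovine blastocysts produced *in vitro* were sequenced on day 8 (D8), 1 library per blastocyst, in 5 wild-type (WT) embryos, WT_1 to WT_5, and 4 *TEAD4* knockout (KO) embryos with the genotype TEAD4-/-, TE_1 to TE_4. KO embryos carried only frame-disrupting indels made by CRISPR/Cas9 in the fourth exon of *TEAD4*, a transcription factor that acts at the end of the Hippo pathway, and the study describes its WT embryos as injected with *Cas9* alone. All embryos came from oocytes of slaughterhouse ovaries fertilized with sperm of a single bull and were cultured in synthetic oviduct fluid. Each library holds the whole blastocyst, inner cell mass and trophectoderm together, so fewer cells of a type and less RNA per cell cannot be told apart.

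Chemokines are small secreted proteins that guide cells along a concentration gradient by binding G protein-coupled receptors. The CC and CXC classes are named for the spacing of the first pair of conserved cysteines. In the pregnant uterus they are best known for directing leukocytes at the interface between conceptus and endometrium, and trophoblast cells carry several of the receptors. A ligand transcript in an embryo says nothing on whether the protein was secreted.

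Values are in TPM, a transcript's share of all transcripts in its library, which the authors corrected for transcript length, so that levels of different genes can be set side by side. TPM does not keep the number of reads, so the precision of values close to 0 is unknown. The number of genes above 0 TPM was 14807, 15933, 16678, 16086 and 16549 in WT_1 to WT_5. It was 14776, 15156, 15167 and 15375 in TE_1 to TE_4. All WT libraries but WT_1 were thus above every KO library. Whether this bears on genes listed at 0 in KO embryos was not tested. Pearson's r of log2(TPM + 1) across genes lay between 0.913 and 0.984 for pairs of libraries. *TEAD4* mRNA was at 18.0, 52.5, 54.3, 36.5 and 43.4 TPM in the WT embryos and at 42.8, 41.8, 12.5 and 22.2 TPM in the KO embryos, which does not show whether a transcript carries an indel. The trophectoderm markers *CDX2*, *GATA3*, *GATA2*, *KRT8* and *KRT18* were at no less than 11.4 TPM in every library. *SOX2*, *NANOG*, *GATA4*, *GATA6* and *SOX17* of the inner cell mass were above 0 in every library, with wide spreads. *NANOG* was at 0.127 to 262 TPM in WT and 2.70 to 53.3 TPM in KO embryos, and *SOX2* at 3.89 to 90.4 and 2.26 to 42.4 TPM. *POU5F1*, which the study describes as not separated from *CDX2* in bovine as in mouse, was also above 0 in every library.

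The 7 ligands fell into 3 that were present in nearly every embryo and 4 that were close to absent. *CCL26*, *CXCL16* and *CCL22* passed the detection threshold of the study, a median above 0.1 TPM over all 9 embryos, and were compared between genotypes. *CCL2*, *CCL20*, *CXCL8* and *CXCL12* were listed at 0 in most libraries and were not tested. The plot of the 7 genes by embryo shows both kinds.

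**Figure D1:**
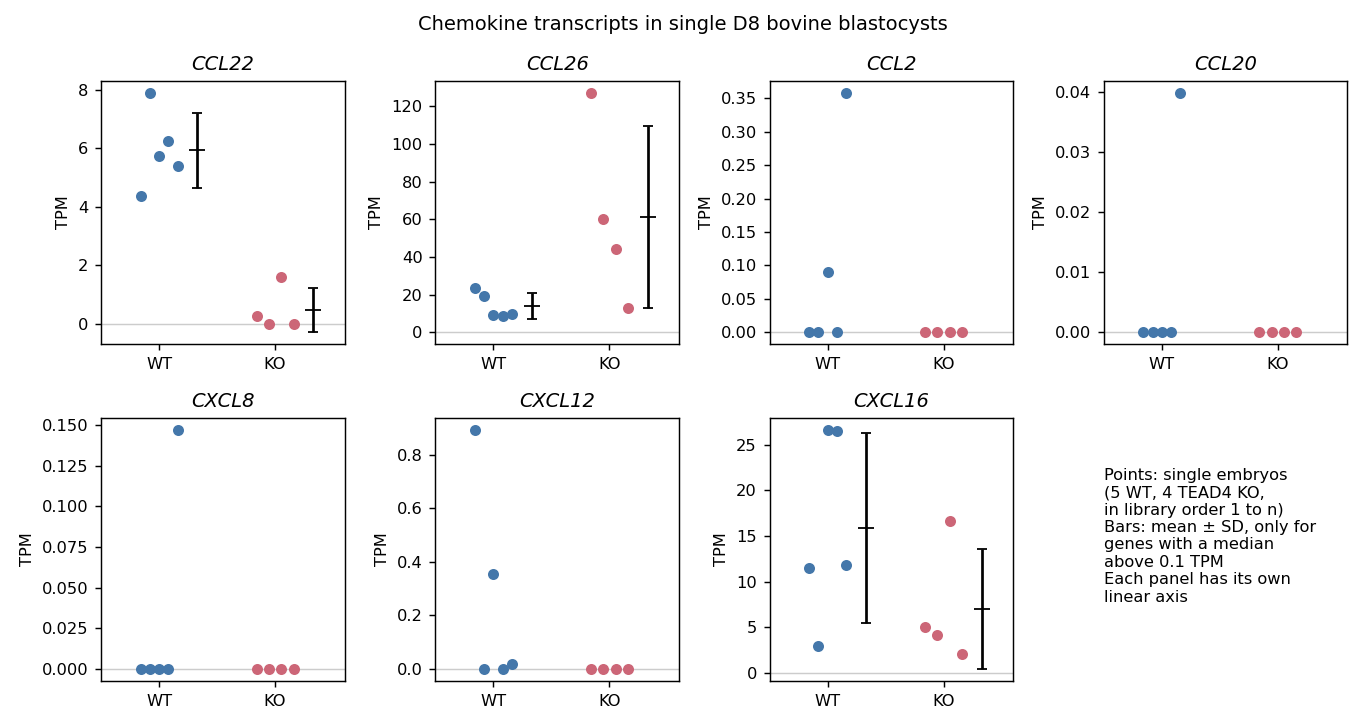
TPM of the 7 chemokine ligands in each blastocyst, 5 WT (blue) and 4 *TEAD4* KO (red), with the mean and SD for the 3 genes with a median above 0.1 TPM. *CCL22* was lower in each KO embryo than in each WT embryo, *CCL26* was above the WT range in 3 of the 4 KO embryos, and the 4 genes that were not tested were at 0 in every KO embryo.

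*CCL22*, a ligand of the receptor CCR4 that is classically made by macrophages and dendritic cells and attracts regulatory and type 2 helper T cells, was at 4.37, 7.90, 5.75, 6.25 and 5.39 TPM in WT_1 to WT_5. In TE_1 to TE_4 it was at 0.273, 0, 1.59 and 0 TPM. The WT embryos lay within a narrow band, the highest KO embryo, TE_3, was below the lowest WT embryo, WT_1, and TE_2 and TE_4 had none. WT embryos averaged 5.93 ± 1.30 TPM (SD, n = 5) and KO embryos 0.465 ± 0.760 TPM (SD, n = 4), a ratio of WT to KO of 12.8. On the log2(TPM + 1) scale the difference of KO minus WT was −2.34 (standard error 0.34), and it was −4.39 with a pseudocount of 0.1 TPM in place of 1, since this scale understates changes of low genes. The ratio of the means rests on TE_3, which held most of the KO signal. Without TE_3 the KO mean was 0.0910 TPM and the ratio 65.2, and without TE_4 they were 0.620 TPM and 9.56. Since the WT and KO ranges lay apart over all embryos, leaving out an embryo cannot bring them together.

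*CCL26* (eotaxin-3), a ligand of the receptor CCR3 that attracts eosinophils, was at 23.6, 19.1, 9.34, 8.87 and 9.62 TPM in WT_1 to WT_5. In TE_1 to TE_4 it was at 127, 60.4, 44.0 and 12.8 TPM. TE_1, TE_2 and TE_3 were above every WT embryo, whereas TE_4 lay below WT_1 and WT_2, so that the genotypes overlapped through this 1 embryo. WT embryos averaged 14.1 ± 6.81 TPM (SD, n = 5) and KO embryos 61.0 ± 48.2 TPM (SD, n = 4), a ratio of KO to WT of 4.33, and the log2 difference was 1.75 (standard error 0.55). Without TE_1, the embryo with the highest value, the KO mean was 39.0 TPM, the ratio 2.77 and the log2 difference 1.27. Without TE_4 the KO mean was 77.1 TPM, the ratio 5.47, the log2 difference 2.34, and the ranges of the genotypes no longer overlapped. The spread between embryos was wide in KO and the level in TE_1 exceeded that of the other 3 KO embryos summed.

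*CXCL16*, the transmembrane ligand of CXCR6 that is shed by the metalloproteases ADAM10 and ADAM17, was at 11.5, 2.89, 26.7, 26.6 and 11.8 TPM in WT_1 to WT_5. In TE_1 to TE_4 it was at 5.00, 4.15, 16.7 and 2.08 TPM. WT_3 and WT_4 had the highest levels, but WT_2 was as low as the KO embryos and TE_3 was above 3 of the WT embryos. WT embryos averaged 15.9 ± 10.4 TPM (SD, n = 5) and KO embryos 6.98 ± 6.59 TPM (SD, n = 4). The log2 difference of −1.09 (standard error 0.63, 95% interval −2.46 to 0.27) did not pass the test (adjusted p = 0.897 from limma, a linear model fitted across all detected genes with Benjamini-Hochberg adjustment; exact permutation test, two-sided, p = 0.190, where 0.0159 is the smallest possible). The ratio of WT to KO means was 2.28, and 4.24 without TE_3, with a log2 difference of −1.58 (adjusted p = 0.581 from limma).

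The remaining 4 ligands were found in WT libraries alone, at low values that carry an unknown number of reads. *CXCL12*, the ligand of CXCR4 that guides the homing of stem cells and germ cells, was at 0.894, 0.355 and 0.0190 TPM in WT_1, WT_3 and WT_5 and at 0 in the other 6 libraries. *CCL2*, the main attractant of monocytes through CCR2, was at 0.0905 TPM in WT_3 and 0.358 TPM in WT_5. *CXCL8* (interleukin 8), which attracts neutrophils through CXCR1 and CXCR2, was above 0 only in WT_5, at 0.147 TPM, and *CCL20*, the ligand of CCR6, only in WT_5, at 0.0399 TPM. WT_5 was thus the 1 embryo with all 7 ligands above 0, and it was also among the libraries with the most genes detected, 16549. No comparison between genotypes can be drawn from these 4 genes.

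In WT embryos the order of the mean levels was *CXCL16*, *CCL26*, *CCL22*, *CXCL12*, *CCL2*, *CXCL8* and *CCL20*. *CXCL16* and *CCL26* did not differ beyond their spread, with *CXCL16* higher in 3 of 5 embryos. *CCL26* was above *CCL22* in 5 of 5 embryos and the ranges did not overlap. In KO embryos the order was *CCL26*, *CXCL16* and *CCL22*, followed by the 4 genes at 0. *CCL26* was above *CXCL16* in 4 of 4 embryos, with overlapping ranges, and *CXCL16* was above *CCL22* in 4 of 4 embryos, with ranges that did not overlap. Set against all 18549 genes above 0 TPM in any library, the mean of *CCL26* was above 70.3% of genes in WT and 87.2% in KO, that of *CXCL16* above 71.9% and 61.5%, and that of *CCL22* above 58.5% and 29.4%.

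*CCL22* and *CCL26* each lie near another ligand of their own receptor. In the RefSeq annotation of ARS-UCD2.0, *CX3CL1* and then *CCL17* follow *CCL22* among the protein-coding genes, and *CCL24* follows *CCL26*. *CCL17*, the other ligand of CCR4, was at 133, 158, 65.5, 97.1 and 32.7 TPM across WT_1 to WT_5, compared with 165, 8.51, 246 and 11.7 TPM across TE_1 to TE_4. TE_3 and TE_1 held the highest *CCL17* of all embryos and TE_2 and TE_4 the lowest, so that the WT range lay inside the KO range. Its log2 difference was −0.87 (standard error 0.91, 95% interval −2.85 to 1.12, adjusted p = 0.970 from limma), although the mean TPM was higher in KO, 108 against 97.3. The log2 difference was −0.095 without TE_2, −0.24 without TE_4, −1.47 without TE_1 and −1.66 without TE_3. Within the KO group, the embryos with *CCL22* above 0, TE_1 and TE_3, were those with high *CCL17*. *CCL22* made up 3.17 to 14.1% of the summed TPM of *CCL22* and *CCL17* in the WT embryos. In TE_1 to TE_4 it made up 0.165%, 0%, 0.642% and 0%. Nothing is read from these shares, since *CCL22* was picked for its change. *CX3CL1*, which lies between *CCL22* and *CCL17*, was above 0 only in WT_5, at 0.0591 TPM, and TE_3, at 0.442 TPM.

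*CCL24* (eotaxin-2), which also binds CCR3, was at 0.903, 16.5, 15.7, 48.8 and 8.76 TPM across WT_1 to WT_5, compared with 33.9, 0.922, 1.21 and 2.08 TPM across TE_1 to TE_4. WT_1, TE_2, TE_3 and TE_4 had low levels, and TE_1 was the only KO embryo in the upper part of the WT range. Its log2 difference was −1.40 (standard error 0.98, 95% interval −3.53 to 0.73, adjusted p = 0.928 from limma), and it ranged from −2.37 without TE_1 to −0.89 without WT_4. *CCL26* made up 96.3, 53.6, 37.3, 15.4 and 52.3% of the summed TPM of *CCL26* and *CCL24* in WT_1 to WT_5 and 78.9, 98.5, 97.3 and 86.0% in TE_1 to TE_4. *CCL26* was thus the larger of the pair in all 4 KO embryos and in 3 of the 5 WT embryos. The shares of the genotypes overlapped through WT_1. They are a description, since *CCL26* was picked for its change. The plot of the neighbouring pairs sets these values side by side.

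**Figure D2:**
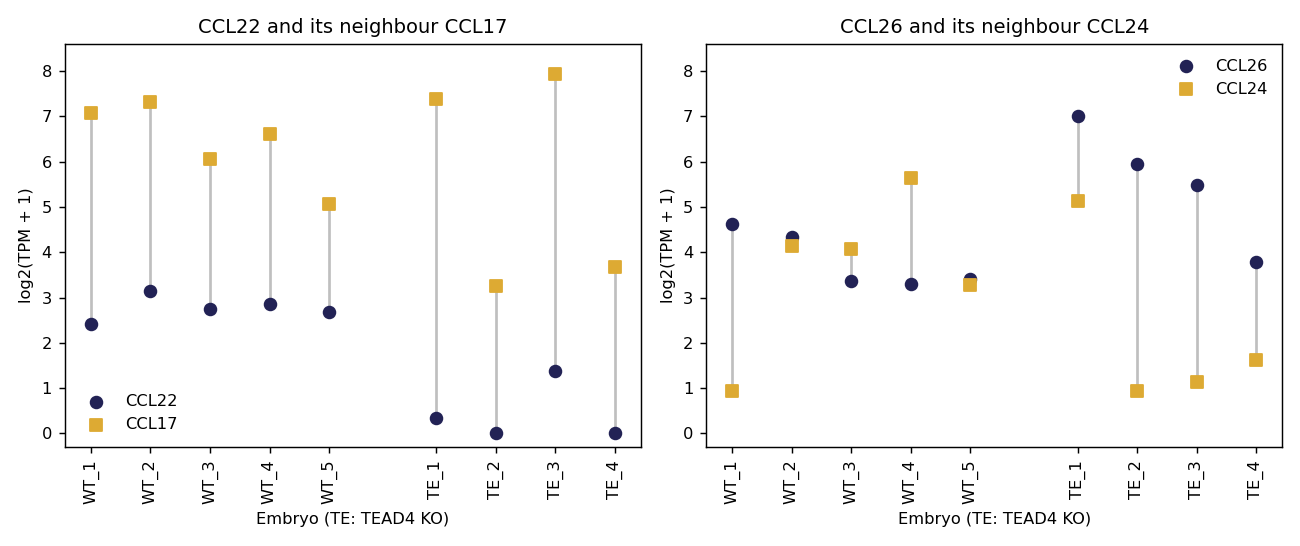
Level of *CCL22* with its neighbour *CCL17* (left) and of *CCL26* with its neighbour *CCL24* (right) in each embryo, as log2(TPM + 1), with a grey line joining the genes of a pair. *CCL17* was far above *CCL22* in every embryo, and *CCL26* was above *CCL24* in the 4 KO embryos while the order varied between WT embryos. *CCL22* and *CCL26* were picked for their change between genotypes.

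The 7 genes gave a minor part of the chemokine transcripts of most embryos. Over the 34 ligands of a list of 42 that are in the table, TPM summed to 128 to 372 in WT and to 118 to 367 in KO embryos. The 7 genes made up 11.2 to 21.5% of this sum in WT and 37.0, 54.7, 17.0 and 11.3% in TE_1 to TE_4, the larger part of it *CCL26* and *CXCL16*. *CCL17* was the most abundant ligand in WT_1, WT_2, TE_1 and TE_3, *CXCL5* in WT_3, WT_4 and WT_5, *CCL26* in TE_2 and *CCL1* in TE_4. *CCL26* alone gave 2.38 to 8.83% of the ligand TPM in the WT embryos and 35.5, 51.2, 12.0 and 9.74% in TE_1 to TE_4, from which nothing is read, since *CCL26* was picked for its change.

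Of the 35 further ligands of that list, 12 were detected, 7 were at 0 in every library and 8 had no row of that symbol. *CXCL5*, a neutrophil attractant that binds CXCR2, was at 83.9, 40.9, 91.6, 162 and 48.5 TPM across WT_1 to WT_5, compared with 18.3, 24.6, 38.2 and 2.82 TPM across TE_1 to TE_4. Its lowest WT value, in WT_2, was just above its highest KO value, in TE_3, and the genotypes did not overlap. Its log2 difference of −2.22 (standard error 0.61) did not pass the test over all genes (adjusted p = 0.558 from limma), and it was −1.51 without TE_4. *CXCL5* belongs to a cluster with *CXCL2*, *CXCL3* and *GRO1* whose sequences are alike, so the split of reads among them by pseudoalignment is uncertain.

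*CCL1*, a ligand of CCR8, was at 6.64, 0.751, 3.14, 8.07 and 3.89 TPM across WT_1 to WT_5, compared with 5.06, 4.55, 13.7 and 90.9 TPM across TE_1 to TE_4. TE_4, the KO embryo with the lowest *CCL26*, had by far the most *CCL1*. The log2 difference was 1.62 (standard error 0.77, adjusted p = 0.846 from limma), and it was 0.73 without TE_4.

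Of the chemokine ligands and receptors, 23 were detected. *CCL22* and *CCL26* were picked for this contrast and are left out of the count of calls. A gene was called changed at a limma adjusted p-value below 0.05 with a log2 difference beyond 1 in either direction. Of the other 21, 0 were called, where 0.0205% of the 14599 genes tested were. Before adjustment, 1 of these 21, *CXCL5*, had a limma p-value under 0.05, against 5.90% of all genes. The study's own DESeq2 analysis names *CCL26* among the genes upregulated in KO embryos, grouping it with cyclins. Which embryos entered that analysis is unclear, since the study's sheet of changed genes has a name saying that TE4 was left out. The 4 KO embryos all lay below the WT range for *CCL22*, from which nothing is read, and for *CXCL5*, as they did for 1.23% of all genes tested. They all lay above it for 0 of the 23, as they did for 0.801% of all genes tested. The median log2 difference of the 12 other ligands was −0.010 and that of the 8 receptors −0.041, beside −0.046 over all genes tested.

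**Figure D3:**
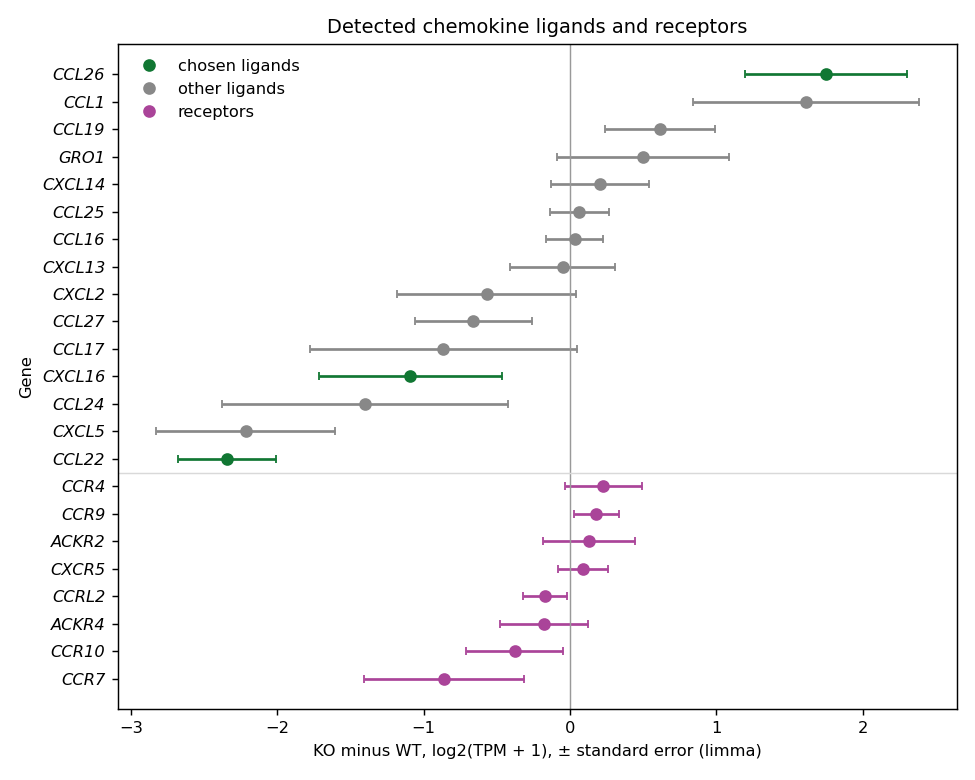
Difference of KO minus WT in log2(TPM + 1) with its standard error from limma for the 15 detected chemokine ligands, the chosen ones in green and the others in grey, and for the 8 detected receptors in purple. *CCL22* and *CXCL5* stood lowest and *CCL26* and *CCL1* highest, and the receptors lay between −0.86 and 0.23.

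The signalling receptors of the 7 ligands were at or near 0 in nearly all libraries. *CCR4*, the receptor of CCL22, was the only one of them above the detection threshold, at 0.490, 0.129, 0.195, 0.404 and 0.279 TPM across WT_1 to WT_5, compared with 0, 1.27, 1.18 and 0.0641 TPM across TE_1 to TE_4. Its log2 difference was 0.23 (standard error 0.26, adjusted p = 0.971 from limma). *ACKR2*, an atypical receptor that takes up CCL2, CCL22 and other CC chemokines, was also detected, from 0 to 1.30 TPM in WT and from 0.149 to 1.61 TPM in KO embryos (log2 difference 0.13, standard error 0.31, adjusted p = 0.985 from limma). The receptors of CCL26 were *CCR3*, above 0 in WT_5 alone at 0.0712 TPM, and *CX3CR1*, at 0 in every library. *CCR2*, *CXCR1*, *CXCR2* and *CXCR6* were each above 0 in 1 WT library and at 0 in every KO library, none above 0.115 TPM, and *CCR6* was at most 0.193 TPM.

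*CXCR4*, the signalling receptor of CXCL12, was at 27.6 TPM in TE_2, at 0.113 and 0.105 TPM in WT_3 and WT_4 and at 0 in the other 6 libraries. TE_2 was thus the 1 embryo with more than a trace of this receptor, and it had no *CXCL12*. *ACKR3*, which binds and removes CXCL12, was at 1.02 TPM in WT_1 and 0.480 TPM in TE_2, and at most 0.129 TPM elsewhere. WT_1 was also the embryo with the most *CXCL12*, 0.894 TPM.

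**Figure D4:**
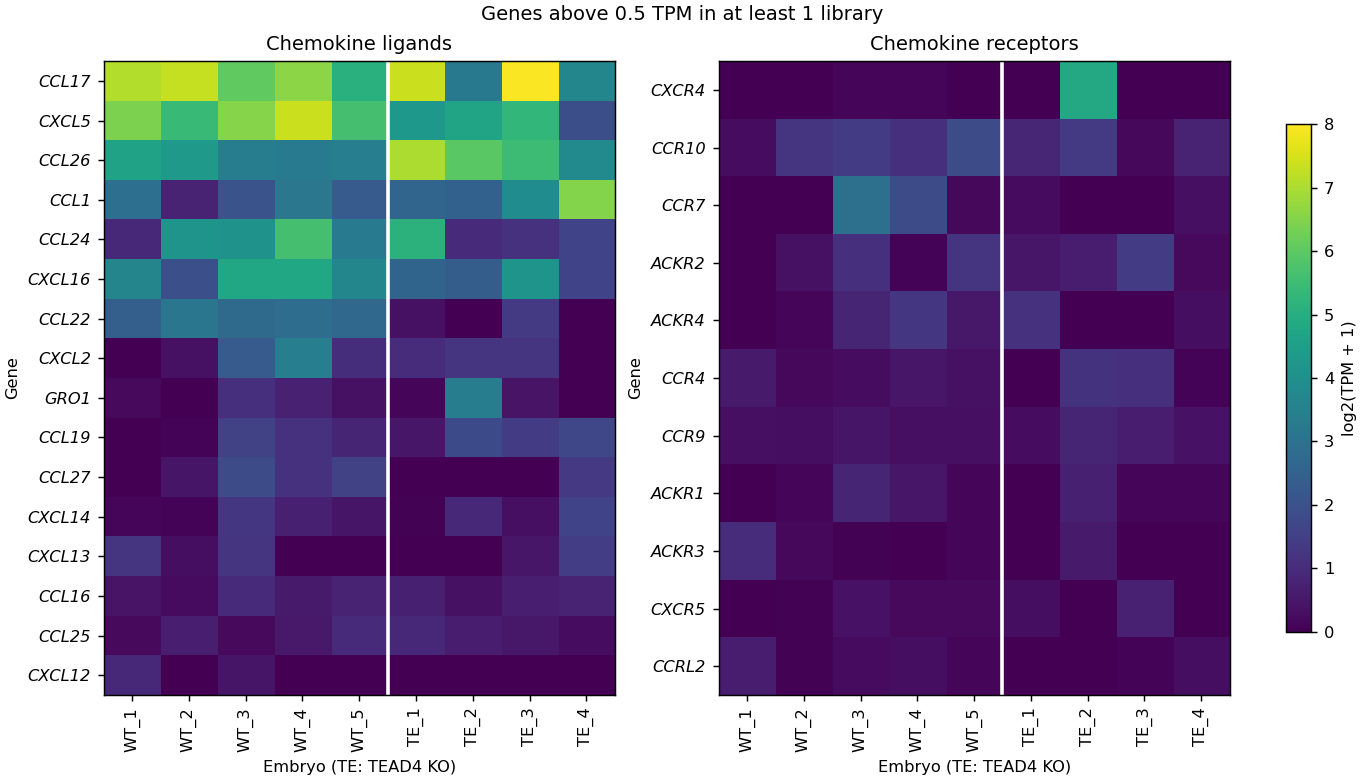
Heat map of log2(TPM + 1) for the chemokine ligands (left) and receptors (right) above 0.5 TPM in at least 1 of the 9 libraries, ordered by mean level, with WT and KO embryos divided by a white line. *CCL17*, *CXCL5* and *CCL26* led the ligands, while the receptors were dark apart from single embryos, such as *CXCR4* in TE_2.

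The proteases that process these chemokines were present in both genotypes. *ADAM10* averaged 25.0 ± 7.61 TPM (SD) over the 5 WT and 26.3 ± 13.9 TPM over the 4 KO embryos, and *ADAM17* 9.60 ± 2.98 and 6.57 ± 5.25 TPM. *DPP4*, which trims the amino end of chemokines such as CCL22 and CXCL12, was between 3.11 and 11.9 TPM in WT embryos and between 0.186 and 14.8 TPM in KO embryos, lowest in TE_1 and highest in TE_3. None of the 3 passed the test, with 0.921 as the smallest adjusted p from limma.

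Chemokines are also products of leukocytes and of the cumulus cells that surround the oocyte. Of 10 leukocyte markers, 7 to 8 were above 0 in each WT library and 6 to 8 in each KO library, with sums of 19.9 to 89.0 and 12.8 to 128 TPM. *PTPRC* (CD45), which defines leukocytes, was at 0 in every library. *AIF1* was more than the other markers summed in every embryo but TE_2 and ranged from 5.01 TPM in TE_2 to 124 TPM in TE_3. Without *AIF1* the markers summed to 3.80 to 13.7 TPM in WT and 4.28 to 8.51 TPM in KO. Of 8 cumulus and granulosa markers, 4 to 8 were above 0 in the libraries of each genotype, with sums of 19.3 to 37.5 TPM in WT and 4.40 to 31.1 TPM in KO, mainly *FSHR* and *STAR*. The lowest sum was that of TE_4. The other 6 markers differed in direction. *TNFAIP6* was above 0 in 4 of 5 WT and 1 of 4 KO embryos, *HAS2* in 5 and 2, and *FST* in 4 and 2, whereas *AMH* was above 0 in 2 and 4, *PTX3* in 1 and 2, and *CYP19A1* in all 9. None of these was above 3.05 TPM. The part of these cells in the chemokine values was not tested.

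The detected genes whose log2(TPM + 1) was most like that of *CCL22* over the 9 embryos were ENSBTAG00000027204 (Pearson's r = 0.990), ENSBTAG00000033523 (0.963), *QKI* (0.931), *TP53INP2* (0.929) and *SMAD4* (0.918). The points include the difference between genotypes by which *CCL22* was picked, and the r values are a description. ENSBTAG00000027204, which the table lists without a symbol, was at 25.8, 41.4, 26.1, 31.1 and 29.1 TPM across WT_1 to WT_5, compared with 5.36, 3.93, 14.9 and 3.05 TPM across TE_1 to TE_4. As for *CCL22*, WT_2 was the highest WT embryo and TE_3 the highest KO embryo. *QKI*, an RNA-binding protein that regulates splicing, was between 6.51 and 10.8 TPM in WT and between 1.46 and 5.87 TPM in KO embryos, again with TE_3 as the highest KO embryo. *SMAD4*, the common mediator of TGF-β and BMP signals, was between 27.4 and 36.7 TPM in WT and between 17.7 and 22.1 TPM in KO embryos.

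The genes most like *CCL26* were, in this order, *H2AC21* (Pearson's r = 0.952), *NSUN7*, *NPEPL1* (0.942), *HSF5* (0.929) and ENSBTAG00000054115 (0.901). *H2AC21*, a clustered histone gene whose near-identical relatives make its own value uncertain, was at 1.57, 1.70, 1.62, 0.782 and 1.03 TPM across WT_1 to WT_5, compared with 17.6, 11.1, 7.12 and 2.27 TPM across TE_1 to TE_4. It followed the order of *CCL26* among the KO embryos, from TE_1 as the highest to TE_4 as the lowest. Nothing is read from this order, since *H2AC21* was named for its likeness to *CCL26* over these embryos. *NPEPL1*, an aminopeptidase-like gene, averaged 5.57 ± 1.08 TPM (SD) over the 5 WT and 8.16 ± 2.19 TPM over the 4 KO embryos, with overlap through TE_4. *NSUN7*, a member of the RNA methyltransferase family, and *HSF5*, of the heat shock factor family, were at or below 1.07 TPM in every embryo.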

How the data were processed

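The authors made 1 library from each D8 blastocyst, with no pooling. The submitters' processing notes name FastQC, fastp and kallisto, without versions, and the annotation and genome build are not given in the sources used here. On the library kit and the sequencer, the sample labels differ from the study's methods. The deposited file holds TPM, made by the authors, which sums to 1000000 in each of 9 libraries, and 0 other columns of values were left out. Columns were assigned to genotypes by their names, and the match of columns to individual samples within a genotype is not given.

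Genes with a median above 0.1 TPM were compared, KO minus WT, on the log2(TPM + 1) scale by the lmFit and trended eBayes functions of limma 3.58.1 (R 4.3.3), with Benjamini-Hochberg adjustment over 14599 genes. The fit was tested on simulated data. DESeq2, which the authors ran on counts, was not run, since TPM keeps no counts. The mean log2(TPM + 1) of *CXCL16* was also compared between genotypes by exact permutation in scipy 1.17.1 (Python 3.11.15, numpy 2.4.6, pandas 2.3.3). Plots were made with matplotlib 3.10.9. The members and the lists were chosen with earlier results of these data known. The genes named were the 7 ligands, detected chemokine ligands, receptors and processing genes of lists written by hand, the 5 genes most correlated with *CCL22* and with *CCL26*, and *TEAD4*. Other genes were chosen after their values were seen. The study's sheet of changed genes has a name saying that TE4 was left out, so values without TE_4 are given for *CCL22* and *CCL26*. Alternatives were a pseudocount of 0.1 TPM, other filters, scaling by median-of-ratios factors or by quantiles, an untrended, a robust and an array-weighted limma fit, and leaving out each embryo. Gene neighbours come from the RefSeq table of ARS-UCD2.0.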

Additional observations from a re-analysis of the deposited data

Results flagged for a closer look

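In 16 of 47 groups of embryos looked at (a ligand or receptor in WT or in KO), 1 embryo stood apart by the size of its gap to the nearest other embryo, set against the range of the group (Dixon's ratio above its 95% critical value). About 1 group in 20 would do so by chance if the values were normally distributed, which was not tested. A gene listed at 0 in all embryos of a group but 1 always does. The 16 of 47 can therefore not be set against 1 in 20.

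Among KO embryos, *CXCR4* was at 27.6 TPM in TE_2 and at 0 in the other 3. *GRO1*, a CXC ligand, was at 9.41 TPM in the same embryo and at most 0.341 TPM in the others, and *ACKR3* was at 0.480 TPM there and at 0 in the others. *CCL1* was at 90.9 TPM in TE_4 and between 4.55 and 13.7 TPM in the others, and *CCL27*, a ligand of CCR10, was at 1.52 TPM in TE_4 alone. *CCL24* was at 33.9 TPM in TE_1 and at most 2.08 TPM in the others.

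Among WT embryos, 6 of the 10 values that stood apart were in WT_5, namely *CCL2* at 0.358 TPM, *CCL20* at 0.0399 TPM, *CXCL8* at 0.147 TPM, *CCR3* at 0.0712 TPM, *CCR2* at 0.115 TPM and *CCR6* at 0.193 TPM. The others were *CXCR1* at 0.0546 TPM in WT_3, *CXCR2* at 0.0278 TPM and *CXCR6* at 0.0643 TPM in WT_2, and *ACKR3* at 1.02 TPM in WT_1.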

How the results depend on the processing

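The log2 differences of *CCL22*, *CCL26* and *CXCL16* kept their direction under all 19 alternatives. For *CCL22* and *CCL26* nothing is read from this, since both were picked for this contrast. The log2 difference of *CCL22* came to −4.39 at a pseudocount of 0.1 TPM and −2.66 to −2.20 when single embryos were left out. That of *CCL26* was 1.27 to 2.34 and that of *CXCL16* −1.58 to −0.74 when single embryos were left out, and *CXCL16* was called under none of them. The order of the 7 ligands by mean level was as given with median-of-ratios size factors. *CCL22* and *CCL26* were again left out of the count of calls, since both were picked for this contrast. No other detected ligand or receptor was called changed under any of the alternatives. The number of genes called changed over the whole table, 3, became 8 at the smaller pseudocount, 6 and 8 with a median above 0.5 and 1 TPM, 5 with median-of-ratios size factors, 6 with quantile normalization, 5 untrended, 6 with a robust fit, and 0 to 10 when single embryos were left out (10 without TE_3, 0 without TE_1, TE_2, TE_4, WT_3 or WT_4). No paired analysis was possible because each library is a separate embryo and the numbers in the names are not described as pairs. TPM does not keep the reads behind a value, so the values of *CCL2*, *CCL20*, *CXCL8* and *CXCL12* have no error.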

Other observations

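Genes of the pathways that induce chemokines in other cells were present. Of 16 such genes (NF-κB subunits and their regulators, and receptors for interleukins and TNF), 15 were detected, 6 with a higher and 9 with a lower mean in KO. Over all genes tested, 6449 had a higher and 8150 a lower mean. None of the 15 was called changed by limma (0.0205% of all genes) and 0 had an unadjusted p-value under 0.05 (5.90% of all genes), so neither share sets them apart. Their median log2 difference was −0.12, beside −0.046 over all genes. *RELA*, the main activating NF-κB subunit, averaged 6.74 ± 1.38 TPM (SD) over the 5 WT and 6.06 ± 0.941 TPM over the 4 KO embryos. *IL13RA1*, a receptor subunit for interleukins 4 and 13, averaged 11.6 ± 6.44 and 7.35 ± 2.57 TPM, highest in WT_3 and WT_4, the embryos that also had the most *CXCL16*. *STAT6*, which relays those interleukins to *CCL26* and *CCL17* in other cells, was at most 0.413 TPM.

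Of the receptors that bind none of the 7 ligands, *CCR7*, which binds CCL19 and CCL21, was at 6.80 TPM in WT_3 and 2.65 TPM in WT_4 and at most 0.254 TPM in the other 7 embryos. *CCR10*, a receptor of CCL27 and CCL28, was above 0 in every embryo, from 0.199 to 2.64 TPM in WT and from 0.120 to 1.58 TPM in KO.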
